A study of Saccharomyces cerevisiae with 4 samples.

Results

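Divergent intergenic DNA separates a pair of neighbouring genes that are transcribed away from each other, so 1 stretch of DNA holds the promoters of both. Arp4 is a nuclear actin-related protein found in the NuA4 histone acetyltransferase and in the SWR1 and INO80 chromatin remodelling complexes, and chromatin immunoprecipitation with sequencing was used to map it in budding yeast, Saccharomyces cerevisiae. Of 1430 Arp4 peaks in the deposited list, 204 (14.3%) had their summit in such DNA and are described here. They were chosen by summit position alone, with RefSeq genes of the R64 assembly, and positions of peaks are counted from 1. The summit had to lie in no protein-coding or RNA gene, with the protein-coding gene to its left on the Crick strand and the one to its right on the Watson strand. The summits fell into 200 gaps, of 1527 divergent gaps in the genome.

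All cells were wild type and were grown in rich YPD medium at 30 °C to mid-log phase, an optical density of about 0.6. In 2 samples ARP4 carried a 3Flag tag, and 2 samples carried no tag. The same Flag antibody was used for all 4. The data are 1 list of peaks without values per sample, so the values below have no replicate error and an unknown read depth. What the untagged cells gave was not analysed here. Because position chose the peaks, and with 1 list, nothing below is tested, and intervals on shares are Wilson 95% intervals that cover counting error over gaps or peaks only.

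In yeast a typical active promoter holds a nucleosome-depleted stretch just upstream of the transcription start, flanked by well-placed nucleosomes. The nucleosome at the start of the gene is the main site at which SWR1 exchanges histone H2A for the variant H2A.Z. NuA4 acetylates histones H4 and H2A at promoters and is well known at ribosomal protein genes. In a divergent gap the flanking nucleosomes of both genes face each other across a shared regulatory region.

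The gaps that held a summit were long. Over the 204 peaks the gap had a median length of 867 bp, with a range of 248 to 3849 bp. All 1527 divergent gaps had a median length of 511 bp, and the 1327 gaps without a summit had one of 464 bp. A gap with a summit held exactly 1 in 196 cases and 2 in the other 4.

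The share of gaps with a summit was higher in longer gaps. Over all divergent gaps it was 13.1% (200 of 1527, interval 11.5 to 14.9). Among gaps of up to 250 bp only 1 of 253 held a summit (0.395%, interval 0.070 to 2.20), and among gaps of 251 to 350 bp 5 of 269 did. The share was 7.83% for gaps of 351 to 500 bp (17 of 217), 15.3% for 501 to 750 bp (54 of 353) and 25.4% for 751 to 1000 bp (45 of 177). It then levelled off at 31.5% for 1001 to 1500 bp (40 of 127, interval 24.1 to 40.0) and 29.0% above 1500 bp (38 of 131, interval 21.9 to 37.3). Counted per length of DNA, summits were densest in gaps of 751 to 1000 bp, at 2.98 per 10 kb. They were at 0.206 per 10 kb in gaps of up to 250 bp and at 1.3 per 10 kb in gaps over 1500 bp.

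**Figure D1:**
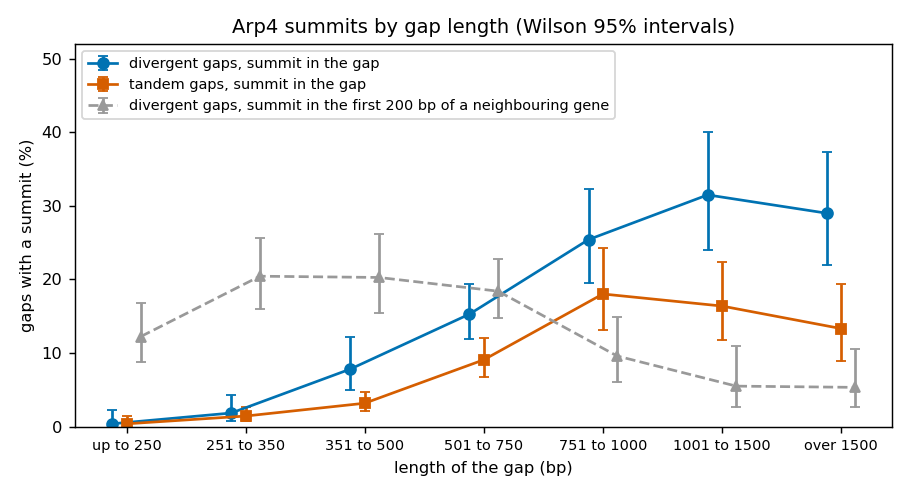
Share of intergenic gaps with an Arp4 summit (y, percent) by gap length (x, bp), with Wilson 95% intervals. Circles are divergent gaps and squares tandem gaps with a summit in the gap; triangles are divergent gaps with a summit in the first 200 bp of a neighbouring gene. The circles climb from 0.395% to 31.5%, while the triangles fall from 20.4% at 251 to 350 bp to 5.34% above 1500 bp.

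Short divergent gaps were not free of Arp4 at their genes. In gaps of 251 to 350 bp, where 5 of 269 held a summit, 55 (20.4%) had a summit in the first 200 bp inside one of the neighbouring genes. Above 1500 bp the order was the opposite, with 38 of 131 gaps holding a summit and 7 (5.34%) having one in the first 200 bp of a neighbour. Counting either place, the share of gaps changed less with length, from 22.3% at 251 to 350 bp through 33.1% at 501 to 750 bp to 32.8% above 1500 bp. It was 12.6% for gaps of up to 250 bp.

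A summit in the gap and one at the start of a neighbouring gene seldom occurred together. Over all divergent gaps, 14.8% had a neighbour with a summit in its first 200 bp. That held for 7 of the 200 gaps with a summit (3.5%) and for 219 of the 1327 without (16.5%). Among gaps of 501 to 1000 bp it was 4 of 99 against 78 of 431, and above 1000 bp it was 3 of 78 against 11 of 180. The 7 gaps with both were FUI1/PRE7, MRX19/LYS20, UME6/MSS4, HTB1/HTA1, COM2/RPS26B, PXR1/YOR1 and ATP18/TDA9 (gene to the left of the gap first). Each of the 1430 peaks has 1 summit, and the closest summits anywhere in the list are 319 bp apart; whether the caller could have separated closer sites is not known. In 6 gaps, none with a summit of its own, both neighbours had a summit in their first 200 bp: ACP1/DPH2, REX2/FRS1, RPS25B/NUP2, TAF8/DAT1, KRE1/VNX1 and SEC23/SMX3.

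Within the gap, summits kept away from the starts and lay toward the middle. The median distance to the nearer annotated gene start was 320 bp (quartiles 224.5 and 448, range 1 to 1043 bp), and to the farther one 548.5 bp. As a share of gap length, the summit was a median of 36.3% from the nearer start, where 50% is the exact middle. The middle 33.3% of the gap held 125 of the 204 summits (61.3%, interval 54.4 to 67.7). Left and right were alike, with the left start nearer for 96 summits (47.1%, interval 40.3 to 53.9) and 1 summit exactly central. Transcription start sites were not used here, so a start is the annotated start of the gene. Distances are therefore not distances from the transcription start, and they cannot be matched to the promoter features described above.

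**Figure D2:**
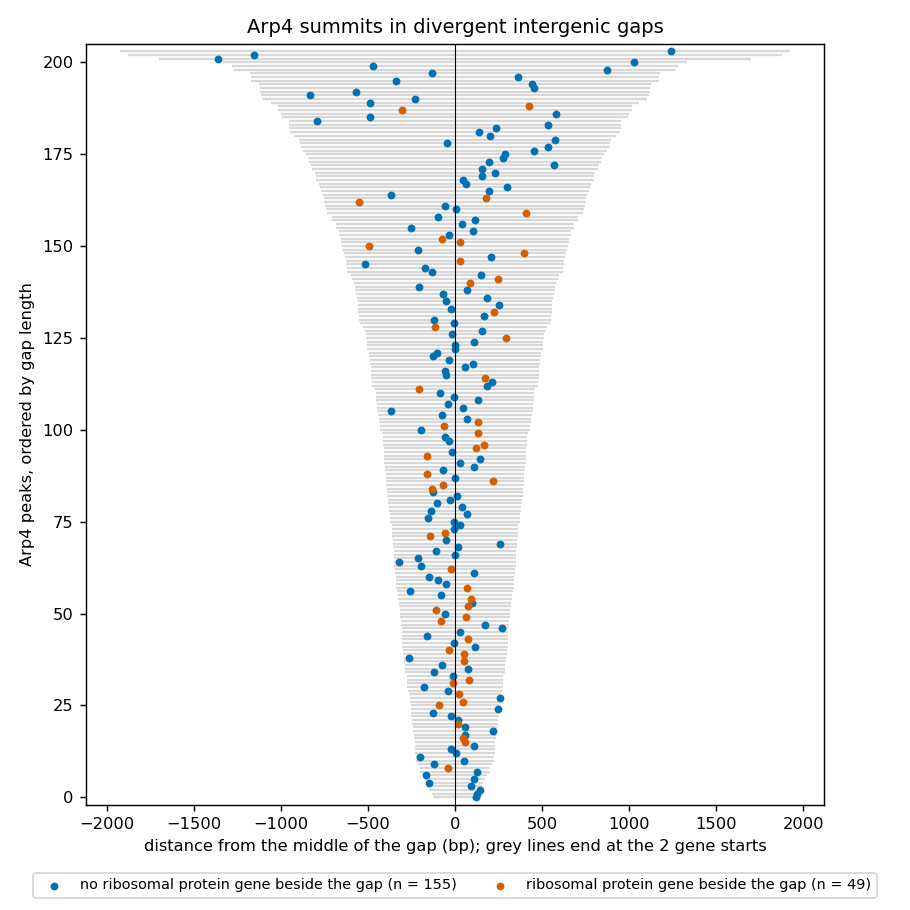
Each row is 1 of the 204 peaks, ordered by gap length (y); the grey line is its gap, ending at the 2 gene starts, and the point is its summit, as distance from the middle of the gap (x, bp). Orange points are the 49 peaks beside a cytosolic ribosomal protein gene. Most points stay near the centre line up to gaps of about 1500 bp and spread out above that.

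The central position held over most gap lengths but not at either end. The middle 33.3% held 11 of 17 summits in gaps of 351 to 500 bp, 34 of 54 at 501 to 750 bp, 32 of 45 at 751 to 1000 bp and 30 of 40 at 1001 to 1500 bp. Above 1500 bp it held 18 of 42. In the 6 gaps of 350 bp or less it held 0, and the median distance to the nearer start there was 3 bp for the 1 gap of up to 250 bp and 10 bp for the other 5. The median distance to the nearer start grew with the gap, from 176 bp at 351 to 500 bp to 574.5 bp above 1500 bp, which a position near the middle requires.

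Examples of summits at the middle come from several kinds of gene. Between SDS23 and OLE1, which encodes the fatty acid desaturase, the summit was 505 bp from both starts (fold enrichment 2.0; chromosome VII, 397956 to 398391). Fold enrichment is the authors' own linear ratio of signal at the summit to the caller's estimate of background. It serves here only to describe and order peaks of the 1 list. Between RCI37 and SEC28, a subunit of the COPI vesicle coat, the summit was 354 and 351 bp away (2.06). At PUT4, the proline permease, and CIN1 it was 505 and 502 bp away (1.32), and at OCA5 and WSC4, a cell wall sensor gene, 400 and 395 bp (3.38; chromosome VIII, 48203 to 48549). The fifth most central summit lay between CYC8, a general corepressor, and RAD16, a DNA repair gene, at 743 and 735 bp (1.53).

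Scaled to the DNA available at each distance, summits were sparse over the 150 bp next to a start. All divergent gaps together, without their RNA genes, offered 1045607 bp and held 1.95 summits per 10 kb. At 1 to 50, 51 to 100 and 101 to 150 bp from the nearer start the density was 0.794, 0.475 and 0.551 per 10 kb. It was 1.49 at 151 to 200 bp and then 3.87 at 201 to 250 bp. From there to 800 bp it stayed between 2.85 and 4.76 per 10 kb, and beyond 800 bp it was 0.659. In gaps over 1000 bp, which offer every distance up to 500 bp from a start, 0 summits lay within 100 bp of a start and 1 at 101 to 150 bp. The density there reached 2.79 at 301 to 400 bp and 4.76 at 501 to 600 bp.

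On the other side of the start the density rose again. Inside genes beside divergent gaps it was 4.19 summits per 10 kb in the first 50 bp and 7.28 at 51 to 100 bp, then 1.98 and 1.87 in the next pair of 50 bp zones. These summits inside genes numbered 233 and lie outside the rule. Their median fold was 1.82, against 1.85 for the 204 peaks in gaps.

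**Figure D3:**
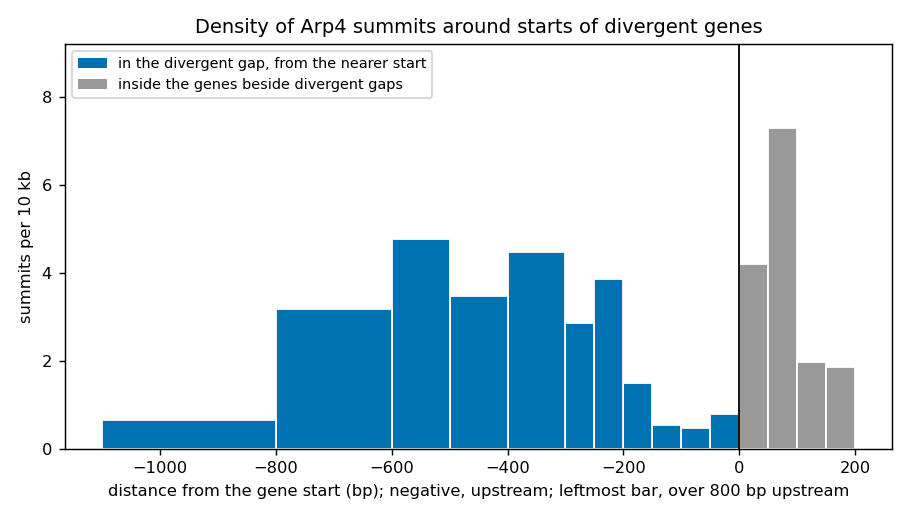
Arp4 summits per 10 kb of available DNA (y) by distance from the gene start (x, bp) for divergent genes. Blue bars lie in the gap, by distance from the nearer start; grey bars lie inside the neighbouring genes. The density is 0.475 to 0.794 over the 150 bp upstream, 2.85 to 4.76 from 201 to 800 bp upstream and 7.28 at 51 to 100 bp inside.

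The rule divides peaks at the start itself. Few summits in the gap lay within 100 bp of it, but many summits inside the genes did. Of the 204 summits, 6 lay within 10 bp of a start and 19 within 100 bp. On the gene side of the same starts, 4 summits lay in the first 10 bp and 175 in the first 100. The 5 nearest inside the gap were at MNP1, a mitochondrial ribosomal protein gene (1 bp, fold 2.02), PRS5, a phosphoribosyl pyrophosphate synthetase gene (3 bp, 2.0), MRP1, another mitochondrial ribosomal protein gene (3 bp, 1.95), STT3, the catalytic subunit of oligosaccharyltransferase (6 bp, 3.43), and MGA2, a regulator of OLE1 (9 bp, 1.69). The 5 nearest inside the gene were at YSY6 (base 4, fold 1.89), CDC39 (base 4, 2.78), NUM1 (base 5, 1.59), MSS4 (base 5, 1.76) and YLR255C (base 11, 1.63). Folds on both sides of the line overlapped.

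Most peaks stayed within their gap. The whole peak lay inside it for 148 of 204 (72.5%, interval 66.1 to 78.2), in gaps with a median length of 1014.5 bp. The other 56 reached over at least 1 start, in gaps with a median length of 576 bp. They ran a median of 122.5 bp past the start, over the 64 starts concerned. Peak width had a median of 358 bp and a range of 220 to 1279 bp, and over all 1430 peaks the median was 359 bp.

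In 8 gaps the peak spanned the whole gap and both starts. At TOA1/SLK19, between the genes of a TFIIA subunit and a spindle protein, a gap of 322 bp lay under a peak of 577 bp, with the summit 10 bp from the start of TOA1 (fold 6.02). It had the highest fold of the 204. The peak at PIB2/STT3 was 611 bp wide over a gap of 299 bp (3.43; chromosome VII, 451958 to 452568). YBL071C-B/KTI11 (3.28), YOR292C/RPS10A (2.87), IOC2/KIN2 (2.65), UTP25/ICE2 (2.51), RPB9/MNP1 (2.02) and CDC9/ENT1 (1.44) were the others. Their gaps were 259 to 515 bp long.

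The 5 widest peaks each ran far past the start of 1 neighbouring gene, and 4 of their gaps had a ribosomal protein gene. Whether a peak also ran past the far end of that gene was not checked. YOR292C/RPS10A was 1279 bp wide and reached 644 bp past the start of RPS10A. RPS4A/YJR146W was 1123 bp wide and reached 442 bp past the start of YJR146W. TEM1/RPS1B was 1098 bp wide and reached 718 bp past the start of RPS1B. RPL11A/PRE2 was 1064 bp wide and reached 616 bp past the start of RPL11A. The remaining one, SRB2/NCP1, was 1110 bp wide and reached 668 bp past the start of SRB2, a Mediator subunit gene.

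The 5 shortest gaps with a summit were APM4/PRS5 (248 bp, fold 2.0), RPB9/MNP1 (259 bp, 2.02), PIB2/STT3 (299 bp, 3.43), YPT31/FIR1 (315 bp, 1.79) and TOA1/SLK19 (322 bp, 6.02). All 5 summits lay within 68 bp of a start. At the other end were VOA1/CLB1 (3849 bp), TYE7/REV1 (3758 bp), CLB5/THI22 (3400 bp), YMR082C/ADH3 (2662 bp) and YML133C/COS3 (2559 bp), with folds of 1.35 to 1.89. There the summit was 682 bp from CLB1, a B-type cyclin gene, 726 bp from TYE7, a regulator of glycolytic genes, 342 bp from the S-phase cyclin gene CLB5, 306 bp from ADH3, a mitochondrial alcohol dehydrogenase gene, and 809 bp from YML133C.

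The 4 gaps with 2 summits were also long. ICS2/AMN1 (2238 bp) had folds of 1.87 and 1.75 at summits 1020 bp apart. KTI12/HAP4 (2346 bp) had 1.57 and 1.67 at 698 bp, with the stronger one 812 bp from HAP4, the activator of respiratory genes. RHO5/RPS3 (2030 bp) had 1.29 and 1.27 at 733 bp. COM2/RPS26B (1505 bp) was uneven, with 1.54 beside COM2 and 2.63 at 574 bp from RPS26B.

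Enrichment in divergent gaps ranged widely. The 204 peaks had a median fold of 1.85 (quartiles 1.55 and 2.42, range 1.17 to 6.02) and a median −log10 q of 21.0. The 1226 other peaks had a median fold of 1.64, and the 166 peaks in tandem gaps, which lie upstream of 1 gene and downstream of another, had one of 1.79. Folds of 2 or more were found for 80 of the 204 (39.2%) and for 266 of the 1226 others (21.7%). At a fold of at least 3 it was 35 (17.2%) against 46 (3.75%), so divergent gaps held 35 of the 81 such peaks in the list. Many of the high folds were beside ribosomal protein genes. Without the 49 peaks beside one, 37 of 155 (23.9%) reached 2 and the median fold was 1.71. Peaks at ribosomal protein genes were not taken out of the 1226 others or of the tandem gaps, so those values are not matched to these.

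Tandem gaps were shorter, and held a summit less often at most lengths. Of 2828 tandem gaps 161 (5.69%) held a summit, and their median length was 401 bp. At 501 to 750 bp the share was 9.09% (43 of 473, interval 6.82 to 12) against 15.3% for divergent gaps, and at 1001 to 1500 bp it was 16.4% (30 of 183, interval 11.7 to 22.4) against 31.5%. Up to 250 bp the shares were 0.391% and 0.395%. A divergent gap has 2 starts and a tandem gap 1. Counted per start, divergent gaps held 6.68 summits per 100 starts and tandem gaps 5.87. In tandem gaps the summit was a median of 403 bp from the start of the downstream gene.

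Cytosolic ribosomal protein genes stood beside 49 of the 204 peaks (24.0%, interval 18.7 to 30.3). These genes encode the protein part of the ribosome and are among the most highly transcribed genes of growing yeast. Of 72 divergent gaps with such a gene, 47 held a summit (65.3%, interval 53.8 to 75.2), against 10.5% of the 1455 other divergent gaps and 13.1% of all. Their gaps were longer than most, with a median of 780.5 bp over the 72, but the share was higher at similar length too. At 501 to 750 bp it was 18 of 23 against 36 of 330, at 751 to 1000 bp 12 of 18 against 33 of 159, and at 1001 to 1500 bp 11 of 14 against 29 of 113. None of the 4 ribosomal protein gaps of 350 bp or less held one.

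These peaks were also the strongest. Their median fold was 3.10 (quartiles 2.69 and 3.67, range 1.22 to 5.15), and 43 of 49 reached 2. Ribosomal protein gaps held 19 of the 20 peaks of highest fold, TOA1/SLK19 being the exception, and 39 of the 50 highest. The top of the order after TOA1/SLK19 ran RPS21B/LCB3 (5.15), RPL42B/CHS7 (5.08), YBL028C/RPL19B (4.60), YGR117C/RPS23A (4.32), RPL11A/PRE2 (4.21), YML6/RPS17A (4.05), SLX8/RPL23B (4.03), UTP6/RPS18A (4.03) and RPL41B/SRF1 (3.99). Then came YGK3/RPL25 (3.88), RPL19A/AAC3 (3.81), RPL24B/GPC1 (3.76), RXT3/RPL31A (3.67), TDA3/RPL27A (3.65), NAT3/RPS23B (3.63), TOS4/RPL37A (3.6), FRE8/RPS0B (3.56), VMA6/RPL6B (3.56) and RPL13B/RPS16A (3.54).

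The partners across the gap had roles of several kinds. LCB3 encodes a sphingoid base phosphatase, CHS7 a chaperone of chitin synthase, PRE2 a catalytic subunit of the proteasome and SLX8 a subunit of a SUMO-targeted ubiquitin ligase. YML6 encodes a mitochondrial ribosomal protein, UTP6 a subunit of the small subunit processome, AAC3 a mitochondrial ADP/ATP carrier, NAT3 an N-terminal acetyltransferase and VMA6 a subunit of the vacuolar proton pump. Because 1 summit serves a gap, these genes share the peak of their ribosomal neighbour, and its value cannot be given to 1 gene of the pair.

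In gaps with 1 ribosomal protein gene, the summit lay at a narrower range of distances from that gene than from its partner. Of 45 such peaks, 35 lay nearer to the ribosomal protein start and 10 nearer to the partner. The distance to the ribosomal protein start had a median of 265 bp and quartiles of 235 and 370 bp, a spread of 135 bp. To the partner start the median was 419 bp, with quartiles of 344 and 653 bp, a spread of 309 bp. Both distances add up to the gap, so they are not independent. Both rose with gap length (Spearman correlation 0.626 for the ribosomal protein start and 0.764 for the partner start). In gaps without a ribosomal protein gene the spread was also smaller for the nearer start, at 274.5 bp against 428 bp for the farther. A distance of 200 to 350 bp was seen from the ribosomal protein start in 28 of 45 (62.2%) and from the partner start in 13. Among the 155 peaks in other gaps, 40 (25.8%) lay 200 to 350 bp from the nearer start. That share uses the nearer start and not a chosen gene. Gap length was not matched, with a median of 794 bp for the 45 peaks and 906 bp for the 155.

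RPS18A, for a 40S protein, shows this in a long gap. Its gap to UTP6 measured 1020 bp, and the summit was 220 bp from RPS18A and 801 bp from UTP6 (fold 4.03; chromosome IV, 1359555 to 1359886). At SFT1/RPL14A, with 1273 bp, it was 238 bp from RPL14A and 1036 bp from SFT1 (3.10), and at RKI1/RPS7A, with 1465 bp, 323 bp from RPS7A and 1143 bp from RKI1 (2.74). The narrow range of distances held for shorter gaps and not for longer ones. In 31 gaps of up to 1000 bp the ribosomal protein start was a median of 247 bp away (quartiles 231.5 and 288.5) and nearer in 26. For the 14 peaks in longer gaps the median was 583 bp (quartiles 325 and 650.5), and the ribosomal protein start was nearer in 9.

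**Figure D4:**
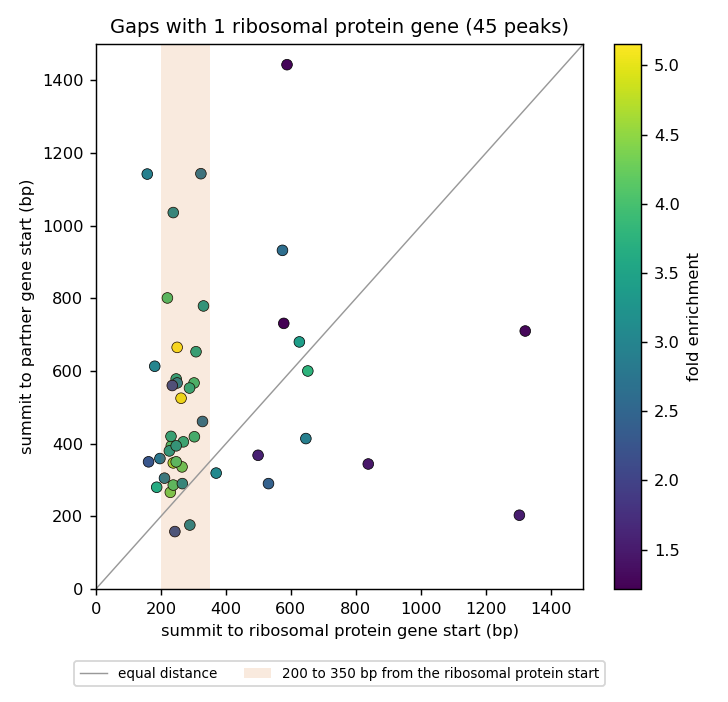
Distance from the Arp4 summit to the ribosomal protein gene start (x, bp) and to the partner gene start (y, bp) for the 45 peaks in gaps with 1 ribosomal protein gene, coloured by fold enrichment; the line marks equal distances and the shaded band 200 to 350 bp. In the band lie 28 points, which spread over partner distances up to 1143 bp.

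Summits far from the ribosomal protein start included some of the weakest peaks. RPL18B/TOS6 (838 bp from RPL18B, fold 1.46), the weaker COM2/RPS26B peak (1303 bp, 1.54), RHO5/RPS3 (1321 and 588 bp, 1.29 and 1.27), RPL8B/FPS1 (578 bp, 1.22) and MOT1/RPS9A (499 bp, 1.58) were the 6 of the 49 with a fold under 2. RPL24B/GPC1 (652 bp, 3.76), AST2/RPS8B (626 bp, 3.40) and ROX3/RPL32 (646 bp, 2.91) were far from the start and strong.

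In 5 divergent gaps both genes were ribosomal protein genes, and 4 of them held 1 summit each. RPL13B/RPS16A (720 bp) had it 217 bp from RPL13B and 504 bp from RPS16A, with a fold of 3.54. Its duplicated counterpart RPS16B/RPL13A (634 bp) had it 210 bp from RPS16B and 425 bp from RPL13A, with 2.48. In the first the 60S gene was nearer and in the second the 40S gene. RPS22A/RPL39 (630 bp) had it 254 bp from RPL39 (3.39) and RPL24A/RPL30 (1156 bp) 495 bp from RPL30 (2.96). The fifth, RPS15/RPP2A (719 bp), had no summit in the gap, and a summit in the first 200 bp of RPP2A.

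Many ribosomal protein genes come in pairs named A and B. Matched by name alone, without regard to sequence, 18 pairs had both copies beside a divergent gap, RPP2A and RPP2B among them. Both copies had a summit in 10 pairs, 1 copy in 5 and neither in 3. Over the 10, the larger fold was a median of 1.29 times the smaller, and at most 1.79 times, at RPS17A (4.05) and RPS17B (2.26). The summit distances from the 2 starts differed by a median of 81 bp and by at most 294 bp, at RPS16A (504 bp) and RPS16B (210 bp). RPS9A (499 bp) and RPS9B (243 bp) also lay far apart, as did RPL13A (425 bp) and RPL13B (217 bp). The RPL13 and RPS16 pairs share the same 2 gaps and peaks, so these entries among the 10 are not independent. RPS0A (331 bp, 3.36) and RPS0B (247 bp, 3.56), and RPL24A (662 bp) and RPL24B (652 bp), are examples of closer pairs. RPL37A (3.6), RPL40A (3.38), RPS10A (2.87), RPS14A (2.92) and RPS29B (2.42) had a summit and RPL37B, RPL40B, RPS10B, RPS14B and RPS29A had none in the gap. How reads that map to both copies were treated is not given in the sources used here.

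Of the 25 ribosomal protein gaps without a summit, 23 had one in a neighbouring gene (92%, interval 75 to 97.8). That share was 39 of 47 in ribosomal protein gaps with a summit (83.0%), 351 of 1302 in other divergent gaps without one (27.0%) and 29.4% over all divergent gaps. In the 25 gaps it lay in the first 200 bp of a neighbour for 9 and deeper for 17. Examples are BUD20/RPL10 (470 bp), VRP1/RPP0 (780 bp), MON1/RPS2 (902 bp) and YOR062C/RPL3 (1154 bp), each with a summit only deeper in a neighbour. RPL37B/PLM2 (499 bp) and IME1/RPL43B (2653 bp) had no summit in gap or neighbours.

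Deeper summits in the neighbouring genes, more than 200 bp inside, were more frequent beside gaps with a summit. Over all divergent gaps 16.8% had one in a neighbour. It was 34% (68 of 200) for gaps with a summit and 14.2% (189 of 1327) for those without. Away from ribosomal protein genes the shares were 19.6% (30 of 153, interval 14.1 to 26.6) and 13.2% (172 of 1302, interval 11.5 to 15.2), whose intervals overlap.

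Histone genes are paired in divergent gaps in yeast, each pair with a shared promoter. Of 6 divergent gaps with a histone or histone variant gene, 4 held a summit, beside the 13.1% of all divergent gaps. HTB1/HTA1, for H2B and H2A (817 bp), had a fold of 1.93 with the summit 391 bp from HTB1 and 427 bp from HTA1. HHT2/HHF2, for H3 and H4 (676 bp), had 1.83 at 287 bp from HHT2 and 390 bp from HHF2. The second copy of each pair, HTA2/HTB2 (699 bp) and HHF1/HHT1 (646 bp), held none in the gap, though HTB2 had a summit in its first 200 bp. HTZ1, the gene of H2A.Z, shared a gap of 1365 bp with PLB3 and had the summit 721 bp from its start (1.65), nearer to PLB3 (645 bp). The linker histone gene HHO1 shared a peak with NAN1 (1.44).

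The gene lists for other functions rest on small numbers, and their shares stand beside the 13.1% of all divergent gaps. Median gap length differed among these lists, from 337 bp (ribosome biogenesis) to 1000.5 bp (glycolysis and fermentation), against 511 bp for all divergent gaps. It was 341.5 bp for RNA polymerase II, 363 bp for mitochondrial ribosomal protein, 405 bp for NuA4, SWR1 and INO80 and 742 bp for translation factor genes. The shares were not adjusted for gap length, and its part in them was not tested. Mitochondrial ribosomal protein genes had 6 of 41 gaps (14.6%), led by YML6/RPS17A, whose partner is cytosolic, and without it 5 of 40 with a median fold of 1.95. Ribosome biogenesis genes had 8 of 77 (10.4%), of which UTP6/RPS18A (4.03) and RPS29B/TSR1 (2.42) also have a ribosomal protein gene. UTP25/ICE2 (2.51), IPI3/PBR1 (1.94), PAM18/RLP24 (1.58), RIE1/NOP19 (1.53), HHO1/NAN1 (1.44) and NOC4/ASN1 (1.43) were the rest. Genes of RNA polymerases I and III had 0 of 24 (upper limit 13.8%), so the background of 13.1% lies within the interval. Of these, RPA43/RPA190, with both genes in the list, had a gap of 804 bp.

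Among RNA polymerase II and general factor genes, 4 of 48 gaps (8.33%) held a summit: TOA1/SLK19 (6.02), ROX3/RPL32 (2.91), SRB2/NCP1 (2.35) and RPB9/MNP1 (2.02). Translation factor genes had 2 of 17, SSA1/EFB1 (3.25) and ANB1/CYC1 (2.09). At SSA1/EFB1 the peak lay 367 bp from the Hsp70 gene SSA1 and 376 bp from EFB1, a subunit of the elongation factor eEF1B (chromosome I, 141632 to 141928). Chaperone genes had that peak and SSC1/TAH11 (1.84), 2 of 22. Proteasome genes had 3 of 29, RPL11A/PRE2 (4.21), FUI1/PRE7 (2.12) and PUP2/ENO1 (1.3). Aminoacyl-tRNA synthetase genes had 1 of 20, FRS2/GAT1 (1.36), and nuclear pore and transport genes 1 of 23, MLP2/RPL40A (3.38), shared with a ribosomal protein gene.

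Genes of NuA4, SWR1 and INO80 subunits had 2 of 21 gaps (9.52%). Both belong to INO80: GLY1/IES6 (2.09, summit 536 bp from IES6) and MET6/IES5 (1.6, 233 bp from IES5). Genes of RSC, SWI/SNF, ISW and SAGA had 4 of 25 (16.0%). These were IOC2/KIN2 (2.65), RPS17B/ADA2 (2.26), SPT8/ERG3 (2.06) and IPT1/SNF11 (1.57).

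Among metabolic genes, the ergosterol list had 4 of 10 gaps (interval 16.8 to 68.7) with a summit, beside 13.1% of all divergent gaps, which is also the background for the other lists here. SET2/ERG20 had a fold of 2.59, SRB2/NCP1 2.35, SPT8/ERG3 2.06 and PDR1/ERG4 1.71. The summit was nearer to SET2 (30 bp) than to ERG20 (556 bp), and nearer to SRB2 (240 bp) than to NCP1 (439 bp). It was about equally far from PDR1 (267 bp) and ERG4 (290 bp), and from ERG3 (380 bp) and SPT8 (401 bp). Of the partners, Set2 methylates histone H3, Srb2 is a Mediator subunit, Spt8 a SAGA subunit and Pdr1 an activator of drug resistance genes. Glycolysis and fermentation genes also had 4 of 10, in gaps with a median of 1000.5 bp, at ADP1/PGK1 (2.40), PFK2/YMR206W (1.53), PUP2/ENO1 (1.3) and PDC6/CTT1 (1.21). Of these, PGK1 (368 bp) and ENO1 (321 bp) were the genes nearer to the summit. PFK2 (750 bp) and PDC6 (1396 bp) were farther from it than their partners YMR206W (380 bp) and CTT1 (257 bp). The tricarboxylic acid cycle and respiration list had 7 of 33 (21.2%), with ANB1/CYC1 (2.09), YEL025C/RIP1 (2.06), MDH2/TRM13 (2.01), ATP18/TDA9 (1.83) and IDH1/NCE103 (1.64) highest. For amino acid biosynthesis it was 7 of 42 (16.7%), led by MRX19/LYS20 (1.93), TRP3/UBA1 (1.64), PPT1/ASN2 (1.61), MET6/IES5 (1.6) and NOC4/ASN1 (1.43). LEU4/MET4, a biosynthetic gene and an activator in the same list, had 1.27.

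The secretory pathway list had 4 of 38 gaps: PIB2/STT3 (3.43), PIN4/SEC17 (2.42), ASF2/SEC31 (2.38) and RCI37/SEC28 (2.06). The first 3 had summits close to a start, 6 bp from STT3, 14 bp from PIN4 and 101 bp from SEC31. Phosphate genes had 2 of 9, PHO81/YHB1 (1.42) and SPL2/ARO9 (1.27). Sporulation and meiosis genes had 3 of 29 (10.3%), at REC8/HAA1 (2.18), SOK2/SPO20 (1.84) and ACA1/SPO73 (1.35), while the pairs DIT2/DIT1, SPO22/HOP1 and SPS18/SPS19 had none. The galactose pair GAL10/GAL1 (668 bp), which is repressed in glucose, had no summit in the gap or in either gene.

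**Figure D5:**
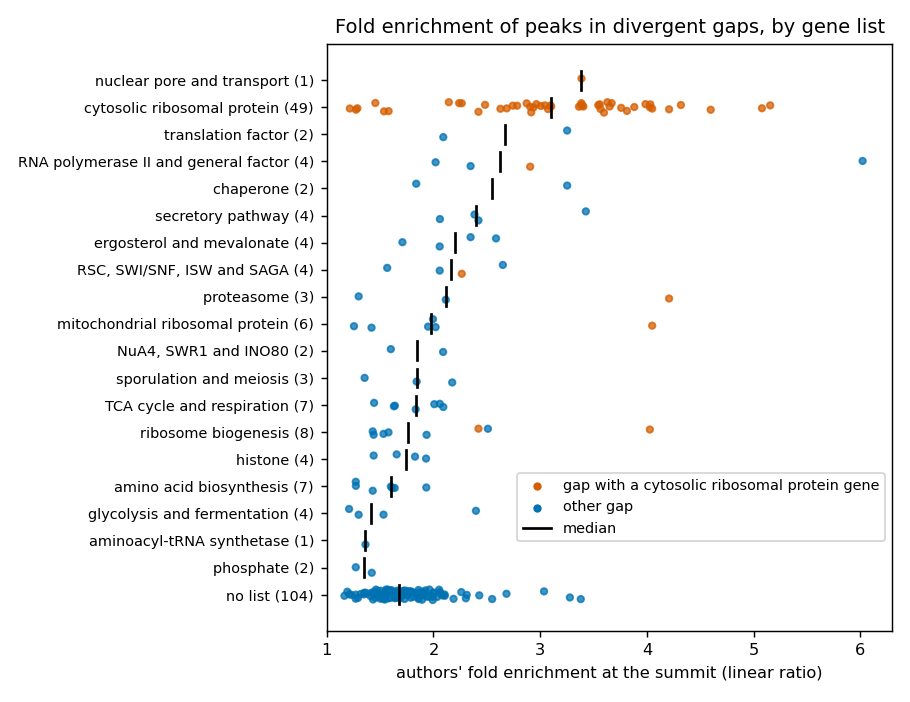
The authors' fold enrichment (x, linear ratio) of peaks in divergent gaps, by gene list (y, number of peaks in brackets); bars are medians, orange points are gaps with a cytosolic ribosomal protein gene, and a peak appears in every list of its 2 genes. Ribosomal protein peaks have a median of 3.10; the highest points of the proteasome, mitochondrial ribosomal protein and ribosome biogenesis lists are orange.

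RNA genes lie in some divergent gaps, and 17 of the 204 summits fell in a gap with one, 13 with a tRNA gene nearest and 4 with a snoRNA gene nearest. Of 106 such gaps, 17 held a summit outside the RNA gene (16.0%), against 183 of 1421 without an RNA gene (12.9%), although the former had a median length of 1299.5 bp. The peak overlapped an RNA gene in 9 cases, and 5 summits lay within 100 bp of one. REC8/HAA1 had its summit 13 bp from the tRNA gene YNCP0009W (2.18), YNL035C/YNL034W 19 bp from YNCN0012C (1.59) and TIM10/STP2 42 bp from YNCH0003C (1.99). In these gaps the summit cannot be given to the protein-coding genes alone.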

How the data were processed

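Labels on genotype defined the groups of the 4 samples. The submitters' processing notes name MACS2, BWA 0.7.15-r1140, fastp 0.21.0 and SAMtools 1.4, without settings. The control, the threshold, the genome build and any pooling of replicates are not given in the sources used. 1 deposited list without a header holds 1430 peaks. Its fold enrichment is a linear ratio by the authors. The deposited −log10 q was at least 1.31, and the deposited score was not used. There were 0 unused columns of per-sample values.

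Positions are counted from 1. Genes are those of RefSeq R64 (6002 nuclear protein-coding genes), with strand read from systematic names. To check the build, tRNA genes with a summit no more than 100 bp away were counted: 46 of 275 as deposited, and 2 to 10 once all summits were shifted by 200 to 1000 bp. Coordinates are printed for peaks only. A gap is the DNA between neighbouring protein-coding genes. Placement of summits was tested on simulated data. Densities divide summits by the bases of divergent gaps at that distance from the nearer start.

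The members and the 21 gene lists were chosen with earlier results of these data known, and the lists matched the table except for 1 mitochondrial gene. Names follow a rule, which takes the 20 strongest members, the 5 extremes of gap length, width, centre and distance to a start, gaps with 2 summits, up to 5 members per list, and pairs within a list. Others were named after their values were seen. Python 3.11.15, numpy 2.4.6, pandas 2.3.3, scipy 1.17.1 and matplotlib 3.10.9 were used.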

Additional observations from a re-analysis of the deposited data

How the results depend on the processing

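Each of 10 results was recomputed under 9 alternatives, giving 90 values. A count was taken as moved when it changed by more than 1.5 times, and a share or median when it left the 95% interval of the reported value: 32 values moved and 58 did not. Some outcomes follow from the alternative itself, so these numbers do not measure robustness. Keeping 1 peak per gap cannot change the share of gaps with a summit, and a filter on fold cannot lower the median fold. The 58 include 276 peaks by midpoint and 148 peaks wholly inside the gap, against 204. The share of ribosomal protein gaps with a summit and the summit distance from the ribosomal protein start were chosen after seeing the data. Keeping only peaks at or above the list's median fold, there were 127 peaks, 8.25% of divergent gaps held one, the median fold was 2.14 and 33.9% of peaks were beside a ribosomal protein gene. With a −log10 q of at least 10, 9.89% of gaps held a summit and the median fold was 2.04. With the peak midpoint in place of the summit, 17.7% of gaps were occupied, the median gap was 775 bp, the median distance to the nearer start 249 bp, 50.4% of midpoints lay in the middle 33.3%, 17.4% were beside a ribosomal protein gene and 43.5% of peaks reached a start. Counting any peak with a base in the gap gave 456 peaks, 28.7% of gaps, a median gap of 632 bp, a distance of 171.5 bp, 29.2% in the middle 33.3%, 12.9% beside a ribosomal protein gene, 64.5% reaching a start and 77.8% of ribosomal protein gaps. With peaks wholly inside the gap, 9.43% of gaps were occupied, the median gap was 1014.5 bp, the distance 381.5 bp, 69.6% lay in the middle 33.3%, 0% reached a start by construction, and 52.8% of ribosomal protein gaps were occupied. Without gaps longer than 1000 bp there were 122 peaks in 9.61% of gaps, with a median gap of 683.5 bp, a distance of 243 bp, a median fold of 2.01 and 41.0% reaching a start. The median distance from the ribosomal protein start, 265 bp (95% interval 243 to 308), was 247 to 288.5 bp in the 9 alternatives.

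No paired analysis was possible because the deposited data are 1 peak list without values per sample, and for the same reason leaving out a replicate was not possible. The planned search for motifs was left out (not run), because the gene table holds no sequence.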

Other observations

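A few members were picked after their values were seen and stand for no group. SFP1, which encodes an activator of ribosomal protein and ribosome biogenesis genes, shared with DUS3 a peak of fold 3.04. GAP1, the gene of the general amino acid permease, shared one with KAE1 (2.68). The gap between UME6, which encodes a repressor of meiotic genes, and MSS4 held one too, and MSS4 also had a summit at base 5 inside the gene.

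The share of divergent gaps with a summit was 13.1% over all chromosomes and rested on few gaps on some of them. It was 1 of 24 on chromosome I (4.17%, Wilson 95% interval 0.739 to 20.2), 1 of 31 on chromosome VI (3.23%, interval 0.572 to 16.2) and 12 of 137 on chromosome XII (8.76%, interval 5.08 to 14.7). On chromosome V it was 15 of 70 (21.4%, interval 13.4 to 32.4), the 1 chromosome of 16 whose interval left out 13.1%. Gap length differed as well, with a median of 423.5 bp on I, 635 bp on VI, 477 bp on XII and 602 bp on V; its part in these shares was not tested. Genes known by a systematic name alone stood beside 330 of the 1527 divergent gaps (21.6%) and beside 35 of the 200 with a summit (17.5%).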
